A study of Mus musculus with 12 samples.

Results

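Chemokines are small secreted proteins that direct the movement of leukocytes. They signal through receptors with names such as Ccr1 or Cxcr4, and they are grouped as Ccl or Cxcl by the spacing of their first conserved cysteines. Brown adipose tissue, the fat depot that burns lipid to make heat, holds resident macrophages, monocytes, stromal cells and vessels beside its adipocytes, and each of these can make chemokines. Here 10 chemokine genes (Ccl2, Ccl3, Ccl4, Ccl6, Ccl7, Ccl8, Ccl9, Cxcl1, Cxcl10 and Cxcl12) were followed by name through 12 RNA-seq libraries of mouse interscapular brown fat, out of 53379 gene IDs counted.

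The study crossed a deletion of Cdk7 in brown fat with a cold exposure. Cdk7 is a kinase of the general transcription factor TFIIH and the activator of cell cycle kinases. Each of the 4 groups had 3 pools: mice labelled Cdk7 bKO (KO) in the cold, wild type littermates (WT) in the cold, KO mice at room temperature and WT mice at room temperature. All were C57BL/6 mice of 12 weeks on standard chow, killed at zeitgeber time 9, and the cold lasted 6 h with food present. Each pool joined 250 ng of RNA from each of 2 mice of 1 genotype and condition, so each value averages 2 mice. No source used here gives the driver of the deletion, the sex of the mice or the temperature of the cold.

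The libraries held 27609717 to 36792555 gene counts. Cdk7 itself averaged 5.21 ± 0.309 CPM in KO pools and 16.6 ± 1.2 CPM in WT pools in the cold, and 5.09 ± 0.712 CPM in KO pools and 15.9 ± 0.72 CPM in WT pools at room temperature (SD, n = 3 each; CPM are counts scaled to a common library size with TMM factors). Brown adipocyte markers were abundant in every library: the 10 genes summed to 13844 to 16660 CPM over the 6 KO pools and to 20163 to 33401 CPM over the 6 WT pools. Of these 10 genes, 6 fell in KO pools in the cold and 8 at room temperature. Skeletal muscle transcripts varied widely within groups. Their 15 markers summed to 1346 CPM in KO pool 6 and 924 CPM in WT pool 2 at room temperature, against 5.12 CPM in the lowest library, so calls were also made without those 2 pools.

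The 10 members fell into 3 that could be measured well, 4 with few reads and 3 that were too low to judge. Cxcl12, Ccl6 and Ccl9 had at least 59 counts in every library. Ccl2, Ccl8, Cxcl1 and Cxcl10 entered the test, yet had under 10 counts in 8, 6, 6 and 3 of the 12 libraries. Ccl3, Ccl4 and Ccl7 did not pass the filter on low counts, with totals of 49, 34 and 77 counts over all 12 libraries. They have no test in the main fit, and results for them without the filter are named as such. In the sections that follow, a change is a log2 fold change with its standard error (SE) from edgeR's quasi-likelihood test, with p adjusted by Benjamini-Hochberg over the 15208 genes tested and a threshold of 0.05.

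In the cold, 6 of the 7 tested members were higher in KO than in WT pools, where 25.9% of all genes tested were called higher and 27.8% lower. At room temperature 5 of 7 were higher, against a background of 19.3% called higher and 21.0% called lower. No tested member was called lower in either comparison. The same shares over all genes are the background for all marker and gene lists counted in the text. Of the members called, Ccl2, Ccl8 and Cxcl1 reached the level that the filter asks for (0.318 CPM) in no WT library and passed it through KO pools alone. They could be tested only because they were high in KO pools, so these counts say nothing beyond Ccl6, Ccl9 and Cxcl12, which reached it in all 12 libraries and were called in both comparisons. In bulk tissue RNA, more cells of a type and more RNA per cell cannot be told apart, here and below. Cold raised 2 of 7 members in each genotype, Ccl6 and Ccl9 both times, and lowered none. Over all genes, 7.29% were called higher and 7.56% lower in the cold in KO pools, against 23.0% higher and 23.2% lower in WT pools. For the difference between the cold responses of KO and WT pools, 10.6% of all genes were called higher and 12.9% lower, and 0 of 7 members. For these 7 the smallest unadjusted p was 0.086 (Ccl2), and the DESeq2 and limma voom fits called 0 members too.

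**Figure D1:**
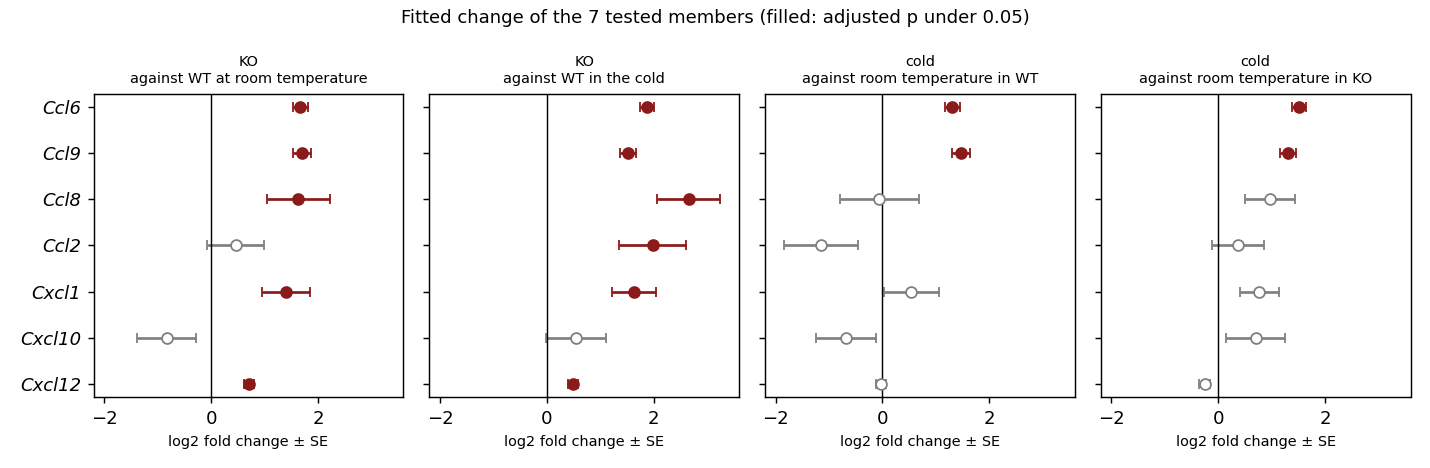
Fitted log2 fold change (horizontal axis, ± SE) of the 7 tested chemokines in 4 comparisons, with filled points where the adjusted p was under 0.05. Ccl6 and Ccl9 are filled in all 4 panels, while Cxcl12 is filled only in both comparisons of KO against WT and Cxcl10 in none.

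Ccl6 and Ccl9 are CC chemokines described in mice as products of myeloid cells and as ligands of Ccr1. In GRCm38 they lie side by side on the minus strand, Ccl9 (ENSMUSG00000019122) at chr11:83572919-83578636 and Ccl6 (ENSMUSG00000018927) at chr11:83587882-83593087, 9.2 kb apart. Because both genes moved together, the 250 bases before each start (RefSeq, GRCm38.p6, minus strand) are shown, chr11:83593088-83593337 for Ccl6 and chr11:83578637-83578886 for Ccl9. Capitals mark the bases of the longest local alignment between the promoters.
Ccl6: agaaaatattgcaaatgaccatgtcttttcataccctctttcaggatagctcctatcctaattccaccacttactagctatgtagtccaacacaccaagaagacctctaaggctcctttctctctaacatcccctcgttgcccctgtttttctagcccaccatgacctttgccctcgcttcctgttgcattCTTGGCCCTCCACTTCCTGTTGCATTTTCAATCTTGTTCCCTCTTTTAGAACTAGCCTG
Ccl9: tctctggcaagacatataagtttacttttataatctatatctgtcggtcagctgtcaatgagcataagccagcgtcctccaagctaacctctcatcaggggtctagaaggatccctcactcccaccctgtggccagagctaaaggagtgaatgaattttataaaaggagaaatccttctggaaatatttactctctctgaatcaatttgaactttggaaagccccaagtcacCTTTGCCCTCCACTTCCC
The aligned stretch had 74 columns with 59 identical bases (79.7%) and gave the highest alignment score of the 21 pairs among the 7 members with a RefSeq promoter. It ran from base -59 to 14 of Ccl6 and from base -18 to 48 of Ccl9, so most of it is offset between the genes and lies past the start of Ccl9. In Ccl9 a kB site of NF-kB was matched at -35 to -26 and the AP-1 motif TGANTCA at -53 to -47. These motifs and the interferon response motif GAAANNGAA, searched on both strands, occur in 7.25%, 6.75% and 7.13% of all 32851 promoters in the table, and none was matched in the Ccl6 window.

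Ccl6 had the smallest p of the 7 tested members in each of the 4 comparisons of KO with WT and of cold with room temperature. It had 38.6, 32.3 and 28.2 CPM in KO pools in the cold, against 9.29, 8.3 and 9.5 CPM in WT pools in the cold. At room temperature it had 9.77, 12.6 and 12.5 CPM in KO pools, against 3.57, 4.07 and 3.27 CPM in WT pools. The groups did not overlap in either condition, and the KO pools at room temperature lay just above the WT pools in the cold. Ccl6 was 3.65-fold higher in KO pools in the cold (log2 fold change 1.87 ± 0.13, adjusted p = 2.2e-08) and 3.19-fold higher at room temperature (1.67 ± 0.14, adjusted p = 2.5e-07). Cold raised it 2.85-fold in KO pools (1.51 ± 0.13, adjusted p = 1.5e-06) and 2.49-fold in WT pools (1.31 ± 0.14, adjusted p = 1.6e-06). These cold responses differed by 0.20 on the log2 scale (95% interval -0.20 to 0.60, adjusted p = 0.49). Reads of E230016K23Rik, which overlaps Ccl6 on the opposite strand, numbered 0 to 20 per library against 93 to 1525 for Ccl6.

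Ccl9 had a lower level per kb of exon and the same order of group means. It had 21.9, 16.5 and 19.3 CPM in KO pools in the cold, against 6.48, 6.53 and 7.04 CPM in WT pools in the cold. At room temperature the values were 5.86, 8.36 and 9.29 CPM in KO pools, against 2.26, 2.7 and 2.23 CPM in WT pools. Genotypes did not overlap in either condition, while KO pools at room temperature spanned the range of WT pools in the cold. Ccl9 was 2.88-fold higher in KO pools in the cold (1.52 ± 0.15, adjusted p = 8.5e-07) and 3.25-fold higher at room temperature (1.70 ± 0.17, adjusted p = 1.3e-06). Cold raised it 2.46-fold in KO pools (1.30 ± 0.15, adjusted p = 3.2e-05) and 2.78-fold in WT pools (1.47 ± 0.17, adjusted p = 3.1e-06). The cold responses differed by -0.18 (95% interval -0.65 to 0.30, adjusted p = 0.62). Of its 50-base stretches, 1.97% also occur in transcripts of other genes, against 0% for the other 9 members.

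Over the 12 libraries the log2 levels of Ccl6 and Ccl9 had a Pearson correlation of 0.99, and each was the other's closest match among 11111 genes of at least 1 CPM. Next in likeness to Ccl6 were Serinc3 (0.987) and Ly6a (0.986), and next to Ccl9 were Tnfrsf1b (0.988) and Ms4a6c (0.982). These correlations describe 12 libraries in 4 groups and carry no test. Within each library, the ratio of Ccl6 to Ccl9 per kb of exon lay between 2.16 and 3.33. It averaged 2.93 ± 0.427 in KO and 2.29 ± 0.135 in WT pools in the cold, and 2.55 ± 0.275 in KO and 2.57 ± 0.0961 in WT pools at room temperature (SD, n = 3 each).

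**Figure D2:**
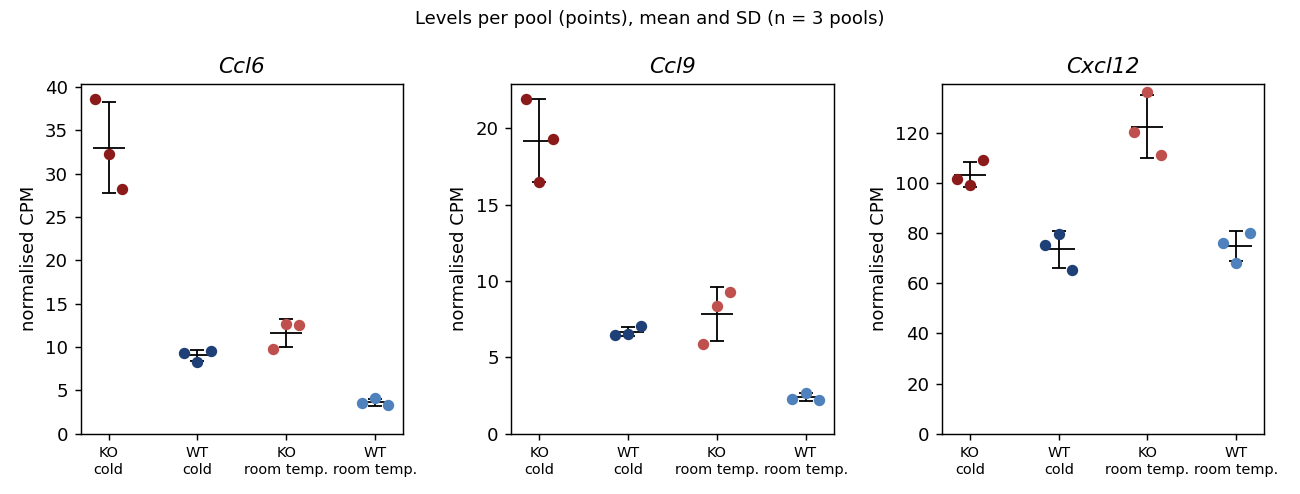
Normalised CPM (vertical axis) of Ccl6, Ccl9 and Cxcl12 in each pool (points), with the mean and SD of 3 pools per group. For all 3 genes the KO pools stand above the WT pools of the same condition, and the KO pools in the cold are the highest for Ccl6 and Ccl9 but not for Cxcl12.

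Both genes are textbook products of macrophages, so the macrophage markers were set beside them. Macrophage markers (13 genes) summed to 313 to 420 CPM in KO pools and 122 to 132 CPM in WT pools in the cold, and to 252 to 321 CPM in KO and 85 to 112 CPM in WT pools at room temperature. No marker of the list was at 0 in any group. Of the 12 markers tested, 11 rose in KO pools in the cold and 10 at room temperature, and cold raised 7 in KO and 4 in WT pools. Lyz2, a lysozyme of myeloid cells, averaged 135.9 CPM in KO and 37.4 CPM in WT pools in the cold. Markers of lipid-handling macrophages (7 genes, among them Trem2 and Gpnmb) summed to 57.1 to 120 CPM in KO and 15.1 to 18.4 CPM in WT pools in the cold, and to 55.8 to 134 CPM in KO and 11.3 to 13.5 CPM in WT pools at room temperature. All 7 rose in KO pools in both conditions, and cold raised 1 of them in each genotype (Lgals3). Of the 7, Spp1 had at most 0.199 CPM in a WT pool, under the level of the filter, so its calls are given as a description. Over all genes tested, 25.9% were called higher in KO pools in the cold and 19.3% at room temperature. Cold raised 7.29% in KO pools and 23.0% in WT pools. The part of the macrophage markers in the chemokine changes was not tested.

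Both chemokines were then set relative to these markers. Per 100 CPM of macrophage markers, Ccl6 had 9.49 ± 0.711 CPM in KO pools and 7.07 ± 0.243 CPM in WT pools in the cold, and 4.13 ± 0.419 CPM in KO and 3.63 ± 0.651 CPM in WT pools at room temperature (SD, n = 3 each). Ccl9 had 5.53 ± 0.517 CPM in KO and 5.24 ± 0.168 CPM in WT pools in the cold, and 2.76 ± 0.384 CPM in KO and 2.39 ± 0.352 CPM in WT pools at room temperature on the same scale. For both genes all cold pools lay above all room temperature pools of either genotype. KO and WT pools overlapped at room temperature for both genes and in the cold for Ccl9, while Ccl6 in the cold was higher in each KO pool (8.98 to 10.3) than in any WT pool (6.79 to 7.23). These ratios are given as a description, with no test. Lyz2 was the largest part of the marker sum. Cold did not pass the test for Lyz2 in KO pools (0.09 ± 0.20, adjusted p = 0.81) or in WT pools (0.21 ± 0.21, adjusted p = 0.44). Other markers of the list rose with cold, so the ratios depend on the markers summed.

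**Figure D3:**
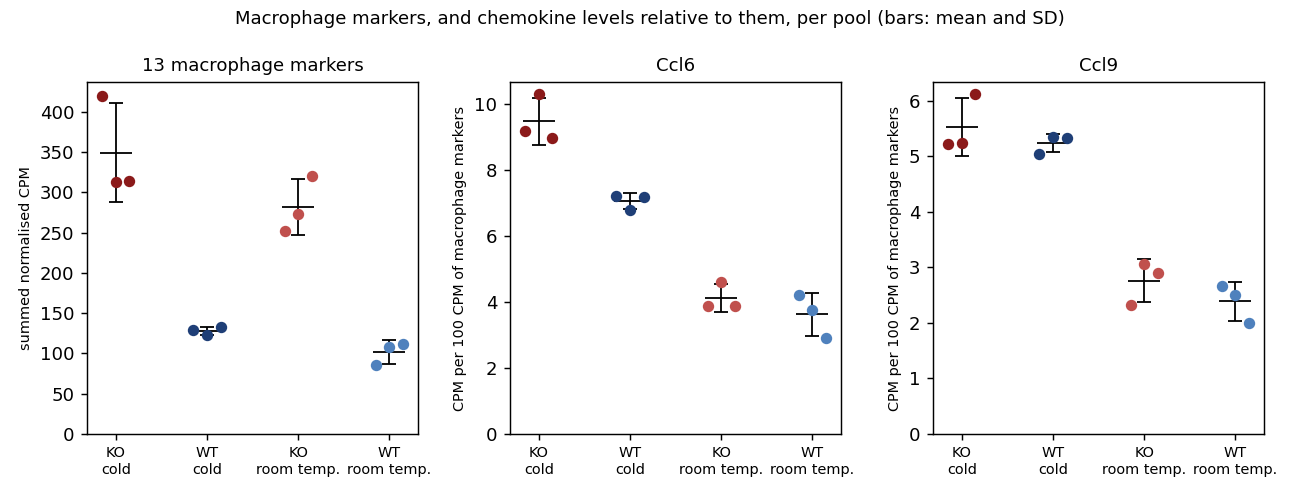
Summed normalised CPM of 13 macrophage markers per pool (left), and Ccl6 and Ccl9 in CPM per 100 CPM of those markers (middle and right), with the mean and SD of 3 pools. The marker sum separates KO from WT pools in both conditions, while the ratios separate cold from room temperature pools.

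Cxcl12 (ENSMUSG00000061353, chr6:117168535-117181367, plus strand) is the stromal chemokine that signals through Cxcr4 and is taken up by the scavenger receptor Ackr3. It had 101.5, 99.4 and 109 CPM in KO pools in the cold, against 75.4, 79.6 and 65.4 CPM in WT pools in the cold. At room temperature it had 120.5, 136 and 111 CPM in KO pools, against 76.1, 68.2 and 80.1 CPM in WT pools. The genotypes did not overlap, and the KO pools at room temperature were the highest of all. Cxcl12 was 1.41-fold higher in KO pools in the cold (0.49 ± 0.10, adjusted p = 0.00049) and 1.64-fold higher at room temperature (0.71 ± 0.10, adjusted p = 2.9e-05). Cold did not pass the test in KO pools (-0.25 ± 0.10, adjusted p = 0.096) or in WT pools (-0.03 ± 0.10, adjusted p = 0.85), and the difference of both was -0.22 (95% interval -0.51 to 0.07, adjusted p = 0.26). The genes closest to it over the 12 libraries were Coro1c (0.973), Sncg (0.969) and Samd14 (0.967). Its promoter window was the richest in G and C of the 7 (64.4%, against a median of 52.4% over the table) and held none of the 3 motifs.

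Fibroblast and endothelial cells are usual sources of Cxcl12. Fibroblast and preadipocyte markers (8 genes) summed to 464 to 645 CPM in KO and 396 to 551 CPM in WT pools in the cold, and to 457 to 523 CPM in KO and 327 to 391 CPM in WT pools at room temperature; 4 of 8 rose in KO pools in the cold and 3 of 8 at room temperature. Endothelial markers (8 genes) summed to 715 to 845 CPM in KO and 650 to 664 CPM in WT pools in the cold, and to 734 to 745 CPM in KO and 496 to 602 CPM in WT pools at room temperature. Of these, 6 rose and 1 fell in KO pools in the cold, and 7 rose at room temperature. Over all genes tested, 25.9% were called higher and 27.8% lower in the cold, and 19.3% and 21.0% at room temperature. No gene of either list was at 0 in a group. Per 100 CPM of endothelial markers Cxcl12 had 13.1 ± 1.21 CPM in KO and 11.2 ± 1.14 CPM in WT pools in the cold, and 16.6 ± 1.73 CPM in KO and 13.4 ± 0.7 CPM in WT pools at room temperature (SD, n = 3 each); KO and WT pools overlapped in the cold and not at room temperature. Per 100 CPM of fibroblast markers it had 19.9 ± 3.69 CPM in KO and 16.3 ± 2.48 CPM in WT pools in the cold, and 24.8 ± 3.1 CPM in KO and 21.2 ± 3.58 CPM in WT pools at room temperature, and the genotypes overlapped in both conditions. The part of these markers in the Cxcl12 result was not tested.

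Read per kb of exon, Cxcl12 was the most abundant member in 3 of the 4 groups. In KO pools in the cold Ccl6 stood above it, with 21.5, 18 and 15.7 CPM per kb of Ccl6 against 12.4, 12.2 and 13.3 CPM per kb of Cxcl12. In CPM, Cxcl12 stood above Ccl6 in these pools (means of 103.3 and 33.0). The order per kb thus rests on the lengths used, all annotated exons joined, which were 8176 bases for Cxcl12 and 1795 for Ccl6. The ratio of Ccl6 to Cxcl12 per kb averaged 1.46 ± 0.275 in KO and 0.566 ± 0.0931 in WT pools in the cold, and 0.434 ± 0.0724 in KO and 0.224 ± 0.0439 in WT pools at room temperature (SD, n = 3 each). Ccl9 had 6.32 ± 0.901 CPM per kb in KO and 2.20 ± 0.101 CPM per kb in WT pools in the cold. Ccl8 averaged 1.06 CPM per kb over all 12 libraries, and the other 6 members between 0.124 and 0.243 CPM per kb, with neighbours in that order closer together than their spread between pools.

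Ccl2, Ccl7 and Ccl8 sit in a cluster on chromosome 11 and are monocyte-attracting chemokines. Ccl2 and Ccl7 bind Ccr2, and mouse Ccl8 is known as a ligand of Ccr8. Ccl8 (chr11:82115185-82116799, plus strand) had 88, 30 and 16 counts in KO pools in the cold, against 3, 5 and 6 counts in WT pools in the cold. At room temperature it had 35, 13 and 13 counts in KO pools, against 5, 8 and 6 counts in WT pools. The genotypes did not overlap in counts, and KO pool 1 in the cold was far above the other 2. Ccl8 reached the level of the filter in 6 KO libraries and in no WT library, so its calls are given as a description. Ccl8 was 6.30-fold higher in KO pools in the cold (2.66 ± 0.59, adjusted p = 0.0016), and 1.80 on the log2 scale without KO pool 1 (adjusted p = 0.008). At room temperature its change was 1.63 ± 0.59 (adjusted p = 0.04). That room temperature call ended without the 2 muscle-rich pools (1.96, adjusted p = 0.089), with the muscle level as a covariate (1.25, adjusted p = 0.1), under limma voom (1.27, adjusted p = 0.087) and without KO pool 4 (1.09, adjusted p = 0.2). It also ended without any one of the 3 WT pools at room temperature (adjusted p of 0.08 to 0.12) and without WT pool 2 or 3 in the cold (0.052 and 0.051), and over all alternatives its adjusted p ran from 0.0013 to 0.2.

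Ccl2 (chr11:82035571-82037453, plus strand), the main monocyte attractant of inflamed tissue, had 7, 13 and 15 counts in KO pools in the cold and 2, 2 and 2 counts in WT pools in the cold. At room temperature the counts were 14, 5 and 6 in KO pools and 3, 4 and 11 in WT pools, which overlapped. Ccl2 was higher in KO pools in the cold (1.98 ± 0.62, adjusted p = 0.013), and that call ended without KO pool 3 (1.68, adjusted p = 0.052). It passed the filter through 3 KO libraries, 2 of them in the cold, so its call in the cold is given as a description. It did not pass at room temperature (0.46 ± 0.53, adjusted p = 0.52). Ccl7 (chr11:82045712-82047525, plus strand), too low to judge, had 13, 12 and 7 counts in KO and 1, 5 and 3 counts in WT pools in the cold, and 5, 8 and 7 counts in KO and 2, 8 and 6 counts in WT pools at room temperature. With no filter on low counts, Ccl7 passed in no comparison.

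Ccl3 and Ccl4 are products of activated macrophages and lymphocytes, and Ccl3 binds Ccr1. Ccl3 (chr11:83647844-83649355, minus strand) had 3, 8 and 16 counts in KO pools and 1, 1 and 0 counts in WT pools in the cold, and 4, 3 and 12 counts in KO and 0, 1 and 0 counts in WT pools at room temperature. Ccl4 (chr11:83662584-83664683, plus strand) had 6, 9 and 6 counts in KO pools and 0, 0 and 1 counts in WT pools in the cold, and 1, 5 and 3 counts in KO and 0, 0 and 3 counts in WT pools at room temperature. Nearly all WT pools were at or under 1 count, where 3 counts in a library amount to 0.0759 to 0.136 CPM. Without the filter, Ccl3 passed in the cold (adjusted p = 0.0032) and at room temperature (adjusted p = 0.0019) and Ccl4 in the cold (adjusted p = 0.0064), with fold sizes that these counts cannot fix.

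Cxcl1 (chr5:90891241-90893115, plus strand), which draws neutrophils through Cxcr2, had 30, 18 and 29 counts in KO pools and 5, 7 and 5 counts in WT pools in the cold. It had 13, 18 and 10 counts in KO and 5, 7 and 3 counts in WT pools at room temperature, so no KO pool reached down to a WT pool. Cxcl1 was 3.10-fold higher in KO pools in the cold (1.63 ± 0.41, adjusted p = 0.0032) and 2.66-fold higher at room temperature (1.41 ± 0.45, adjusted p = 0.019). The call at room temperature ended without WT pool 3 (1.07, adjusted p = 0.095) and without KO pool 5 (1.13, adjusted p = 0.086). Cxcl1 reached the level of the filter in 6 KO libraries and in no WT library, so both calls are given as a description. Its receptor Cxcr2 had at most 5 counts in a library. Neutrophil markers (7 genes) summed to 1.39 to 2.58 CPM in KO and 1.24 to 1.63 CPM in WT pools in the cold, and to 2.54 to 4.71 CPM in KO and 0.767 to 1.55 CPM in WT pools at room temperature. Of 2 markers tested, 0 rose in the cold and 1 at room temperature, and Ly6g, the defining surface protein, was at 0 in KO pools in the cold and in WT pools in both conditions. Their part in the Cxcl1 result was not tested.

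Cxcl10 (ENSMUSG00000034855, chr5:92346638-92348889, minus strand) is induced by interferons and binds Cxcr3. Its promoter is shown because it held all 3 motifs while its level did not follow the other members: chr5:92348890-92349139 in GRCm38.p6, minus strand, with the matches in capitals. From the 5′ end these are the interferon motif at -213 to -205, a kB site at -159 to -150, 2 overlapping kB sites at -104 to -94, and the AP-1 motif at -74 to -68.
Cxcl10: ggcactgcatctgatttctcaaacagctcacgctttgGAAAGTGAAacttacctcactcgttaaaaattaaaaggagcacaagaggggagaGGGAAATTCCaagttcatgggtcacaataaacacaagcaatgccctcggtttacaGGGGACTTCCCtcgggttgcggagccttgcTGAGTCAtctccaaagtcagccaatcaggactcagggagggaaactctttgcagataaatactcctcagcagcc
Cxcl1 also held a kB site, at -71 to -61, and Ccl3 the interferon motif at -39 to -31, while Ccl8 held none of the motifs.

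Cxcl10 had 22, 15 and 29 counts in KO pools and 22, 3 and 7 counts in WT pools in the cold, and 11, 12 and 14 counts in KO and 8, 18 and 42 counts in WT pools at room temperature. KO and WT pools overlapped in counts in both conditions, and the counts of WT pools spread more widely. Its change in KO pools was 0.55 ± 0.56 in the cold (adjusted p = 0.43) and -0.83 ± 0.55 at room temperature (adjusted p = 0.25), and cold gave 0.70 ± 0.55 in KO pools (adjusted p = 0.44) and -0.68 ± 0.56 in WT pools (adjusted p = 0.34). WT pool 1 in the cold held most of the reads of its group. Without it Cxcl10 was higher in KO pools in the cold (1.58, adjusted p = 0.045) and lower in WT pools in the cold than at room temperature (-1.71, adjusted p = 0.036), and the cold responses differed by 2.40 (adjusted p = 0.038). Over the 12 libraries its correlation with the other 6 tested members lay between -0.071 and 0.38. Art3 overlaps Cxcl10 on the opposite strand and had 768 to 2937 counts per library, so the counts of Cxcl10 are uncertain.

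**Figure D4:**
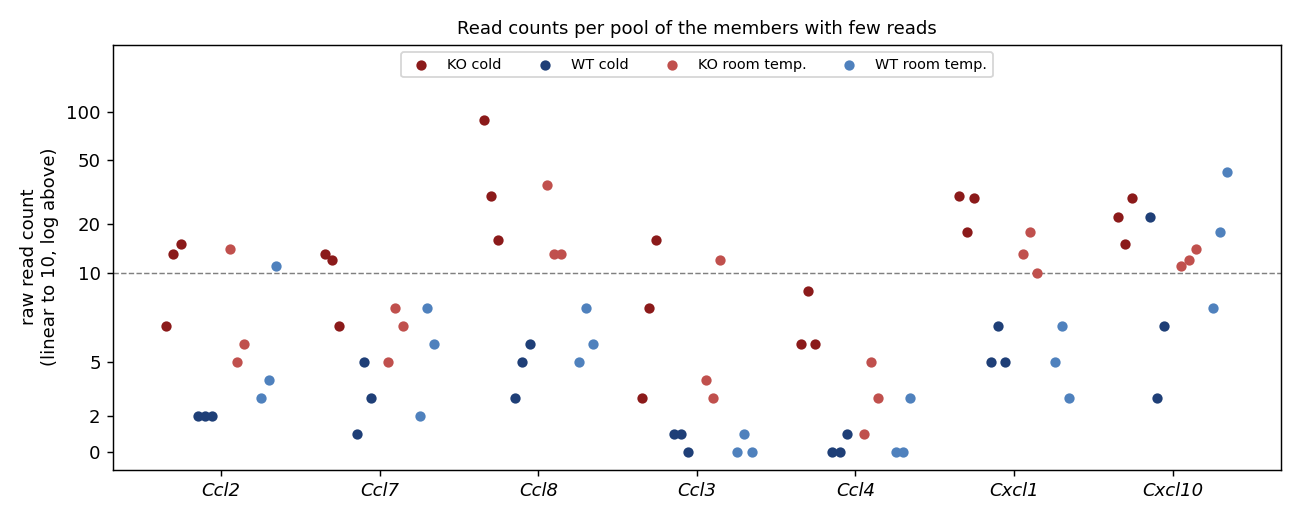
Raw read counts (vertical axis, linear up to 10 and logarithmic above, dashed line at 10) of the 7 members with few reads, in each of the 12 pools. KO pools stand above the WT pools of the same condition for Ccl8 and Cxcl1, while KO and WT pools of the same condition overlap for Cxcl10.

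Interferon response genes, which interferons induce like Cxcl10, were all tested. Of these 15, 13 rose in KO pools in the cold (median change 0.89), while at room temperature 2 rose (Irf7 and Oasl2) and 2 fell (Gbp3 among them; median change 0.24). Cold lowered 10 in WT pools, among them Gbp3 (-1.19 ± 0.18, adjusted p = 8.9e-05). The difference between cold responses was called for 5, all higher in KO pools, among them Gbp3, Ifit2, Gbp2 and Irf1. Of the NF-kB response genes, 14 of 16 were tested; 5 rose and 0 fell in KO pools in the cold (median change 0.47), and 6 rose and 1 fell at room temperature (median change 0.38). Nfkbia, the inhibitor of NF-kB that NF-kB itself induces, rose in KO pools in the cold (0.49 ± 0.10, adjusted p = 0.00058) and at room temperature (0.48 ± 0.10, adjusted p = 0.0011). The cytokine genes Tnf and Il6 were too low to be tested. Cold raised 3 and lowered 1 of the 14 in KO pools and raised 4 and lowered 4 in WT pools. The difference of the responses was called higher for Tnfaip3 and lower for Icam1. Over all genes tested, 25.9% were called higher and 27.8% lower in KO pools in the cold, and 19.3% and 21.0% at room temperature. Cold raised 7.29% and lowered 7.56% in KO pools, and raised 23.0% and lowered 23.2% in WT pools. The difference was called higher for 10.6% and lower for 12.9%. Counts near these shares are no result about a list.

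Chemokine receptors were then followed as the other side of the signal. Of 23 receptors 15 were tested. Of these, 8 rose and 1 fell in KO pools in the cold, and 7 rose and 1 fell at room temperature. Over all genes tested, 25.9% were called higher and 27.8% lower in the cold, and 19.3% and 21.0% at room temperature. The median change of the 15 receptors was 1.19 in the cold and 0.94 at room temperature. Of the 15, 4 passed the filter through KO pools alone, Ccr1 and Ccr9 among them. Cold raised 2 in KO pools (Ccr1 and Ccr9) and lowered 1 in WT pools (Ccr10). Ccr9 reached the level of the filter only in the 3 KO pools in the cold, so its calls rest on that group. Both rises with cold are given as a description and are no result about the receptors. The difference between cold responses was called higher in KO pools for 2, Ccr1 among them. Of all genes, cold raised 7.29% in KO pools and lowered 23.2% in WT pools, and 10.6% were called higher for the difference.

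Ccr1, the receptor of Ccl6 and Ccl9, had 0.683, 0.814 and 0.801 CPM in KO pools and 0.075, 0.0908 and 0.223 CPM in WT pools in the cold. At room temperature it had 0.219, 0.254 and 0.456 CPM in KO pools and 0.192, 0.142 and 0.3 CPM in WT pools, which overlapped. It was higher in KO pools in the cold (2.5 ± 0.45, adjusted p = 0.00022) but did not pass at room temperature (0.51 ± 0.44, adjusted p = 0.38). Cold raised it in KO pools (1.31 ± 0.37, adjusted p = 0.026) and not past the threshold in WT pools (-0.68 ± 0.54, adjusted p = 0.32), and these responses differed by 1.99 ± 0.66 (adjusted p = 0.036). Ccr1 had few reads, 30 counts at most in a library, and reached the level of the filter in 4 libraries, the 3 KO pools in the cold and 1 at room temperature. Its calls rest on the group through which it passed the filter and are given as a description.

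Ccr2, which marks monocytes, averaged 7.87 ± 3.07 CPM in KO and 3.32 ± 0.493 CPM in WT pools in the cold, with changes of 1.25 ± 0.30 (adjusted p = 0.0047) there and 0.88 ± 0.30 (adjusted p = 0.034) at room temperature. Monocyte markers (6 genes, Ccr2 among them) summed to 11.8 to 19.0 CPM in KO and 6.41 to 7.99 CPM in WT pools in the cold, and to 10.6 to 12.8 CPM in KO and 5.25 to 9.48 CPM in WT pools at room temperature. Of this list, 3 of 6 genes rose in KO pools in each condition, and none was at 0 in a group. Cxcr3, the receptor of Cxcl10, was higher in KO pools in the cold (1.06 ± 0.34, adjusted p = 0.015) and at room temperature (1.66 ± 0.35, adjusted p = 0.0013). T cell markers, of which 5 of 6 were tested, rose for 4 in the cold and 2 at room temperature. The part of these cell markers in the receptor changes was not tested. Ccr8 was too low to be tested.

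The receptors of Cxcl12 moved in opposite directions. Cxcr4 had 2.17, 1.44 and 2.31 CPM in KO pools and 0.487, 0.363 and 0.633 CPM in WT pools in the cold, and 1.37, 2.07 and 2.02 CPM in KO and 0.652, 0.455 and 0.762 CPM in WT pools at room temperature. It was higher in KO pools in the cold (1.97 ± 0.30, adjusted p = 4.3e-05) and at room temperature (1.54 ± 0.28, adjusted p = 0.00045), with no overlap of genotypes. Ackr3 had 97.3, 87.9 and 84.4 CPM in KO pools and 262, 276 and 250.4 CPM in WT pools in the cold, and 125, 127 and 117 CPM in KO and 283, 148 and 141 CPM in WT pools at room temperature. It was lower in KO pools in the cold (-1.55 ± 0.22, adjusted p = 0.00023) and at room temperature (-0.63 ± 0.22, adjusted p = 0.042), where WT pool 1 stood far above the other 2. The CPM of Cxcl12 divided by that of Ackr3, a ratio not scaled to length and read between groups only, was 1.15 ± 0.127 in KO and 0.279 ± 0.0159 in WT pools in the cold, and 0.995 ± 0.0652 in KO and 0.432 ± 0.151 in WT pools at room temperature (SD, n = 3 each). KO and WT pools did not overlap in this ratio.

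**Figure D5:**
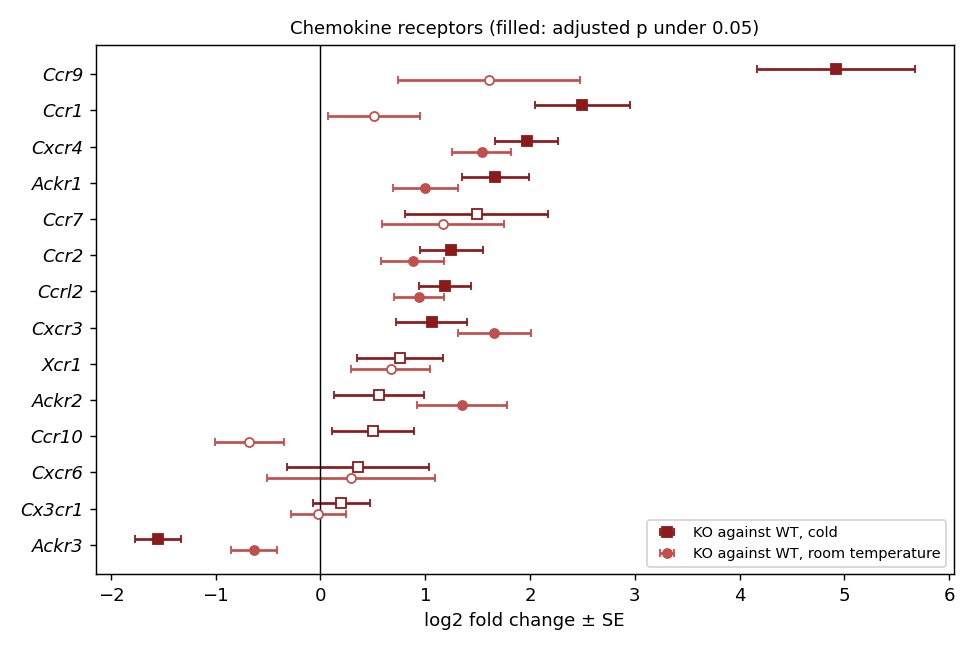
Fitted log2 fold change of KO against WT pools (horizontal axis, ± SE) for 14 of the 15 chemokine receptors tested, in the cold (squares) and at room temperature (circles), filled where the adjusted p was under 0.05. Ackr3 is the only filled receptor left of 0, while Cxcr4, Ackr1, Ccr2, Ccrl2 and Cxcr3 are filled right of 0 in both conditions.

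Of 27 chemokines outside the 10, 16 were tested. Of these, 6 rose and 2 fell in KO pools in the cold, and 3 rose and 1 fell at room temperature. Over all genes tested, 25.9% were called higher and 27.8% lower in the cold, and 19.3% and 21.0% at room temperature. The rises at room temperature are near that share and are no result about the list. Of the 16, 2 passed the filter through KO pools alone, Ccl22 among these, so its calls are given as a description. The median change of the 16 was 0.43 in the cold and 0.51 at room temperature. In the cold the smallest p among them belonged to Pf4 (1.63 ± 0.24, adjusted p = 3.2e-05), a chemokine of platelets and of some macrophages, to the membrane-bound Cxcl16 (1.20 ± 0.18, adjusted p = 3.4e-05), to Ccl25 (-0.54 ± 0.10, adjusted p = 0.00034) and to Ccl5 (1.37 ± 0.32, adjusted p = 0.0018). At room temperature Cxcl16 (1.29 ± 0.17, adjusted p = 2.6e-05), Pf4 (0.98 ± 0.23, adjusted p = 0.003) and Ccl22 (1.5 ± 0.48, adjusted p = 0.02) rose and Ccl27a (-0.61 ± 0.18, adjusted p = 0.011) fell. Cold called 0 of the 16 in KO pools, and raised 1 (Ccl25) and lowered 4 (Ccl24, Ccl27a, Ccl28 and Cxcl9) in WT pools. Of all genes, cold raised 7.29% and lowered 7.56% in KO pools, and raised 23.0% and lowered 23.2% in WT pools. The difference between cold responses was called lower for Ccl25 (-0.71 ± 0.14, adjusted p = 0.0022). Ccl25, Ccl27a and Cxcl16 overlap another gene on the opposite strand, so their counts are uncertain.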

How the data were processed

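RNA from 12 pools of mouse brown fat was sequenced, and each deposited file holds the raw, unnormalised read counts of 1 pool for Ensembl gene IDs. STAR (alignment) and HTSeq (counting) on GRCm38 are named in the submitters' processing notes, without versions. The names of the deposited files speak of a reverse strand setting, and no source used here gives the kit, so members that overlap another gene are named as such. HTSeq's summary lines were left out; reads with several alignments made up 26.6 to 30.2% and were in no gene. Groups came from the labels, and no label gives a batch.

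In R 4.3.3, edgeR 4.0.16 filtered the counts with filterByExpr by group (15208 genes kept, 38171 left out), scaled them by TMM (factors 0.798 to 1.18) and fitted 1 mean per group over all 12 libraries (glmQLFit with robust estimates, glmQLFTest). The SE was taken as the log2 fold change over the root of F, and fitted changes used a prior count of 0.125. Since each pool mixes RNA of 2 mice, p-values measure the spread between pools. A member was called too low to judge when it failed the filter, and low when any library had under 10 counts. Genes outside the 10 were named by smallest p, up to 4 per list and comparison, or as receptors of a member; genes named beyond that among a list's few calls, and Lyz2, Trem2, Gpnmb, Tnf and Il6, were chosen after their values were seen. The members, lists and several alternatives were chosen with earlier results of these data known. Symbols, exon lengths and coordinates came from GENCODE M21 (GRCm38) and promoters from RefSeq (GRCm38.p6), which matched 7 of 10 members; they were aligned with Biopython 1.88. DESeq2 1.42.0, limma 3.58.1, other filters and scalings, muscle corrections and leaving out each pool were alternatives. The same scripts were tested on simulated counts. A comparison of protein sequences was not run. Some genes of the lists are counted but not reported singly here.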

Additional observations from a re-analysis of the deposited data

How the results depend on the processing

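In all, 755 values were recomputed for the 7 tested members over 23 alternatives: 738 kept their side of the threshold, among them 12 changes below it that turned their direction; 12 calls were lost, 5 were gained, and no called change turned its direction. Ccl6, Ccl9 and Cxcl12 kept every call of KO against WT under all alternatives run. Ccl8 and Cxcl1 kept theirs in the cold wherever they were tested. They reached the level of the main filter in no WT library, so this adds no support. Requiring 1 CPM in 6 libraries left 3 members to test, and all 3 were called in KO against WT both in the cold and at room temperature. Leaving out single pools gave 5 to 7 members called in the cold, 3 to 5 at room temperature, 2 to 3 for cold in each genotype and 0 to 1 for the difference between cold responses; the lowest room temperature count of 3 came without WT pool 3, and the 1 of the difference is Cxcl10 without WT pool 1 in the cold. Without a filter 8 members passed in the cold and 6 at room temperature, and Ccl8 also rose with cold in KO pools (0.99, adjusted p = 0.035), as it did without KO pool 3 in the cold (1.32, adjusted p = 0.049). The cause was not tested. With library totals in place of TMM the median change of all genes was 0.45 in the cold (0.01 with TMM), 0.22 at room temperature (0.00), -0.23 for cold in WT pools (-0.03) and 0.24 for the difference (0.01), with 7881 genes higher and 1073 lower in KO pools in the cold (3939 and 4222 with TMM), 4739 and 1267 at room temperature (2940 and 3198), 1826 and 4813 for cold in WT pools (3503 and 3531) and 2388 and 711 for the difference (1614 and 1967); the members called stayed at 6, 5, 2, 2 and 0 in number. Replicate numbers 1 to 3 are shared by 3 groups. Deviations of same-numbered pools had correlations of -0.217, -0.139 and -0.168 between KO and WT pools in the cold. Between WT pools in the cold and at room temperature they were 0.004, -0.225 and 0.242. Between KO pools in the cold and WT pools at room temperature they were -0.27, 0.032 and -0.319. No label gives a batch, and so few pools cannot decide whether the number means more. A fit with the replicate block called 6 members in KO against WT in the cold and 2 for cold in WT pools. KO pools at room temperature are numbered 4 to 6 and gave no such fit. Depth limits Ccl2, Ccl3, Ccl4, Ccl7, Ccl8, Cxcl1 and Cxcl10, where 1 count is 0.0253 to 0.0454 CPM.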

Other observations

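Markers of other cell types that can make or answer chemokines were mostly low. Over all genes tested, 25.9% were called higher and 27.8% lower in KO pools in the cold, and 19.3% and 21.0% at room temperature. Counts near these shares, such as 1 of 4 in the cold, are no result about a cell type. In the cold, 3 of 5 dendritic cell markers rose in KO pools, and 1 of 4 B cell, 1 of 2 NK cell and 1 of 4 mast cell markers tested. At room temperature 2 of 5 dendritic cell markers rose and none of the B cell, NK cell or mast cell markers passed. Cd209a is among the dendritic cell markers that rose in each condition. It had at most 0.261 CPM in a WT pool, under the level of the filter, so its calls are given as a description. The 1 eosinophil marker tested, Ear2, rose in KO pools in both conditions. The 4 eosinophil genes summed to 1.33 to 2.03 CPM in KO and 0.223 to 0.487 CPM in WT pools in the cold. Ear2 made up most of this, with means of 1.54 CPM in KO and 0.33 CPM in WT pools. Epx had 2 counts over all 12 libraries, and was at 0 in WT pools and in KO pools at room temperature. Smooth muscle and pericyte markers rose for 5 of 7 in both conditions and fell for 1 at room temperature, and 0 of 15 skeletal muscle markers passed in either.

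Cxcl14, a chemokine outside the 10 that adipose tissue makes in quantity, had 96.5, 184 and 134 CPM in KO pools and 418, 676 and 594 CPM in WT pools in the cold. At room temperature it had 129, 144 and 139 CPM in KO pools and 544, 130.3 and 224 CPM in WT pools, which overlapped. It was lower in KO pools in the cold (-2.02 ± 0.50, adjusted p = 0.0092 by edgeR) and did not pass at room temperature (-1.12 ± 0.49, adjusted p = 0.1), and the difference between its cold responses did not pass (-0.90 ± 0.69, adjusted p = 0.39). It was chosen after its values were seen.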
